A study of Mus musculus with 12 samples.

Results

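Slc38a5 and 8 other carriers of glutamine and related amino acids were followed across 12 one-colour Illumina bead arrays of mouse embryonic stem (ES) cells. The 9 genes were named by symbol (Slc38a5, Slc38a1, Slc38a2, Slc38a4, Slc7a3, Slc7a5, Slc7a11, Slc3a2 and Slc1a5), and every probe that the platform annotation gave to one of them was taken, 22 of the 45281 probes on the array. Slc38a5 stood at the head of the list because of its difference between deleted and wild type cells in medium with LIF, so that difference is given below as a description and without a test. Slc7a5 had 0 probes, and the other 8 genes were among 19057 with at least 1. Of the 22 probes, 8 probes of 6 genes were detected on all 3 arrays of at least 1 group and entered the fit, and 14 were not.

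The cells were E14, a male ES line of the 129/Ola strain, grown on gelatin without feeder cells in a medium with fetal calf serum and added glutamine. All carried CreER, a Cre recombinase that works after 4-hydroxytamoxifen (OHT) is added. The 4 groups, with 3 arrays each, were HDAC1-/-; HDAC2-/wt cells at day 4 in medium with leukaemia inhibitory factor (LIF), wild type cells at day 0 with LIF, HDAC1-/-; HDAC2-/wt cells at day 4 after 4 days without LIF, and wild type cells at day 0 after 4 days without LIF. Cells of the HDAC1-/-; HDAC2-/wt genotype are called deleted below. The labels put OHT, 16 h at 1 uM, on all 12 samples, wild type ones included, and every deleted sample is a day 4 sample while every wild type sample is a day 0 sample, so genotype and day cannot be told apart. No label says that the arrays within a group were made from different cultures. The p-values therefore measure the spread between arrays, which may be technical. In bulk RNA, fewer cells with a transcript and less transcript per cell cannot be told apart either.

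The 2 deposited tables disagreed on which array was grown with LIF. Every value below follows the processed table, which is keyed by sample. The columns of the non-normalized table, named by the samples' description lines, each had the rank order of another sample of the processed table (Spearman's rho 1 with that sample and at most 0.836 with any other). The 2 namings gave the same genotype to 12 of 12 columns, but the same culture to 0 and the same replicate number to 0. Under the other naming the deleted and wild type comparisons with and without LIF would change places, and every difference between cultures would change sign. Under the processed naming the ES cell markers Klf4, Esrrb and Zfp42 fell after LIF withdrawal. Their log2 differences were -2.45, -2.55 and -2.56 in wild type cells and -2.04, -1.89 and -1.9 in deleted cells. All of these passed in limma, and no ES cell marker rose in either genotype. Under the other naming these markers would be higher without LIF. Which naming is right was not tested. The same-numbered pairs of deleted and wild type arrays within a culture would stay together.

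Arrays had raw medians of 91.2 to 216 and detected 32.8% to 41.8% of probes. Hdac1 had 0 probes. The kept probe of Hdac2 read 11.05, 11.25 and 11.11 (log2 intensity) on deleted arrays with LIF, against 11.45, 11.24 and 11.44 on the matching wild type arrays. Without LIF it read 10.85, 11.10 and 11.17 on the deleted arrays, against 11.03, 11.23 and 11.26 on the wild type arrays. The differences of -0.24 and -0.13 did not pass in limma (adjusted p = 0.241 with LIF and 0.551 without), and where the probe lies relative to the removed sequence is not known, so it checks nothing about the deletion. All 10 ES cell markers looked for, Pou5f1, Nanog and Sox2 among them, were detected.

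Amino acid carriers of the solute carrier (SLC) families bring in the building blocks of protein, and glutamine besides feeds the citric acid cycle, nucleotide synthesis and glutathione. Proteins of the SLC38 family couple small neutral amino acids to sodium. Slc38a5 and its close relatives of the system N type also exchange protons, can run in either direction, and accept glutamine, asparagine, histidine, serine and glycine, whereas Slc38a1, Slc38a2 and Slc38a4 are of the system A type. Slc7a5 and Slc7a11 are light chains that reach the cell surface bound to the heavy chain Slc3a2, the first exchanging glutamine for large neutral amino acids and the second exporting glutamate for cystine. Slc7a3 carries arginine and lysine, and Slc1a5 exchanges glutamine for other neutral amino acids. Mouse ES cells consume much glutamine and depend on several amino acids of their medium for self-renewal.

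In the reference gene table (GRCm38.p6) 2 of the genes lie on the X chromosome, Slc38a5 at chrX:8271381-8280179 and Slc7a3 at chrX:101079146-101090452. Slc38a1 at chr15:96571418-96643438, Slc38a2 at chr15:96687392-96699728 and Slc38a4 at chr15:96994816-97055956 are neighbours on chromosome 15. Slc7a11 lies at chr3:50364936-50499087, Slc3a2 at chr19:8706882-8723369 and Slc1a5 at chr7:16781334-16798274. These are gene spans. The exon or UTR that each probe reads was not analysed here.

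The stretches just before an annotated start of 3 genes are shown because they differ most plainly in their letters: Slc38a5, the gene with the largest rise, Slc38a2, the carrier known in mammals for its induction by amino acid shortage, and Slc7a11, which was not detected. They come from RefSeq (GRCm38.p6), in which 5 of the 9 genes had an entry. Those of Slc38a5 and Slc38a2 abut the gene spans given above, while that of Slc7a11 precedes a transcript start that lies inside its span. Capitals mark motifs searched on both strands: the E-box CACGTG, the amino acid response element written as TGATGNAA, the GC box GGGCGG and the CCAAT box. No motif overlapped another in these 3 stretches. The motifs were chosen after the values of the genes had been seen, and the stretches after the matches had been seen.

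Slc38a5, 250 bases before the start, chrX:8271131-8271380, plus strand: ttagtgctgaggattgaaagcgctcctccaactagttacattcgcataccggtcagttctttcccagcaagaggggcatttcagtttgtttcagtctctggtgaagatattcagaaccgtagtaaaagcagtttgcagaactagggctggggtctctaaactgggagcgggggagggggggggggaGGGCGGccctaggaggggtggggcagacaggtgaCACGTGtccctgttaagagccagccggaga
Slc38a2, 250 bases before the start, chr15:96699729-96699978, minus strand: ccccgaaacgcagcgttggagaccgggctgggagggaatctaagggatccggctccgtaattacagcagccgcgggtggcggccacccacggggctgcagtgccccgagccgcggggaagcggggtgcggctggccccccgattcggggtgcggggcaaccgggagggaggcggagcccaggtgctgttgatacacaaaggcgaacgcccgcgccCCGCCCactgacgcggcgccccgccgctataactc
Slc7a11, 250 bases before the start, chr3:50443614-50443863, minus strand: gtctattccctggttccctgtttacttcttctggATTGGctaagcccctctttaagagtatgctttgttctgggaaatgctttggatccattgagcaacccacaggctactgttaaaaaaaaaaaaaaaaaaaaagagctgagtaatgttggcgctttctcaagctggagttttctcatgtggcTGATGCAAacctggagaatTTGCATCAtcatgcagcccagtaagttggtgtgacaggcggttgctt

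The Slc38a5 stretch held 1 E-box, its first base at position -30 from the start, and 1 GC box, its first base at -64. The Slc38a2 stretch held 1 GC box, on the other strand. The Slc7a11 stretch held 2 amino acid response elements, 1 on each strand, and 1 CCAAT box. Of 32851 mouse promoters cut to the same 250 bases, 6.02% held the E-box, 3.45% the amino acid response element, 32.7% the GC box and 33.8% the CCAAT box. The Slc38a2 stretch was 72.0% G and C with 30 CpG, the Slc38a5 stretch 55.2% with 8 CpG and the Slc7a11 stretch 43.2% with 2 CpG, where the medians over all promoters were 52.4% and 6 CpG. A match of letters is a description and shows no bound factor. Only these 250 bases were searched, so a motif elsewhere in or near a gene would not be seen.

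Slc38a5 was higher in deleted cells than in wild type cells in both cultures. Its single probe (ILMN_2649773) was detected on all 6 deleted and all 6 wild type arrays. With LIF it read 9.25, 9.81 and 9.22 on the deleted arrays, against 7.81, 7.78 and 7.55 on the wild type arrays (log2 intensity). The lowest deleted array stood well above the highest wild type array, and the groups did not overlap, as for 28.9% of all probes in that comparison. The deleted mean was 9.42 ± 0.33 and the wild type mean 7.71 ± 0.15 (SD, n = 3 each), a log2 difference of 1.71 ± 0.16 (SE) or 3.28-fold, the largest rise of the 15999 probes in the fit. On the scale of the authors' deposited intensities the 3 deleted arrays gave 652, 939 and 642, against 270, 264 and 231 on the wild type arrays. These values chose the gene and carry no test.

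Without LIF the gene was measured on other arrays than those of the difference that chose it. The list was still made with earlier results of these data known. The fit also shares 1 estimate of spread over all 12 arrays, those with LIF included. It read 8.34, 8.23 and 7.92 on the deleted arrays, against 7.49, 7.54 and 7.37 on the wild type arrays. Again the groups did not overlap, although the gap was narrower, and the deposited intensities were 369, 346 and 286 on deleted arrays, against 225, 231 and 210 on wild type arrays. The means were 8.16 ± 0.22 in deleted and 7.47 ± 0.09 in wild type cells (SD, n = 3 each). Slc38a5 rose by 0.69 ± 0.16 (SE) on the log2 scale, 1.62-fold, with a 95% interval of 0.35 to 1.04 (limma, adjusted p = 0.0179), and all 3 same-numbered pairs were higher in deleted cells, by 0.85, 0.69 and 0.55. It was the 1 member probe of 8 that passed without LIF, where 7.72% of all 15999 probes passed. The groups did not overlap for 26.9% of all probes in that comparison.

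The call without LIF was close to the threshold for single arrays. Without deleted replicate 1 of that culture the difference was 0.61 (adjusted p = 0.0549), without deleted replicate 2 it was 0.66 (adjusted p = 0.0575), and without wild type replicate 3 it was 0.64 (adjusted p = 0.0793), all from limma. Across all 12 arrays left out in turn it lay between 0.61 and 0.82 and passed 9 times. With replicate number as a block, a term for same-numbered arrays, limma gave an adjusted p of 0.00132, and 0.000922 with the block kept within each culture. In these fits 2771 and 3253 of all 15999 probes passed, against 1235 without a block. Under median scaling of the non-normalized intensities the difference was 0.75 and did not pass (adjusted p = 0.0893).

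The 4 groups of Slc38a5 therefore stood in the order deleted with LIF, deleted without LIF, wild type with LIF and wild type without LIF. No array of a group reached into the range of the next, but the 2 wild type groups nearly met, with a highest value of 7.54 without LIF and a lowest of 7.55 with LIF. Over LIF withdrawal the groups did not overlap for 28.5% of all probes in deleted cells and 32.5% in wild type cells. LIF withdrawal went with a lower level in deleted cells, 8.16 without LIF against 9.42 with LIF, a difference of -1.26 ± 0.16 (SE). In wild type cells the difference was -0.24 ± 0.16 (SE). The change with LIF withdrawal differed between deleted and wild type cells by -1.02 ± 0.23 (SE). These 3 values use the arrays on which the gene was chosen and are given without a test. The array numbered 3 was the lowest of its group in all 4 groups.

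**Figure D1:**
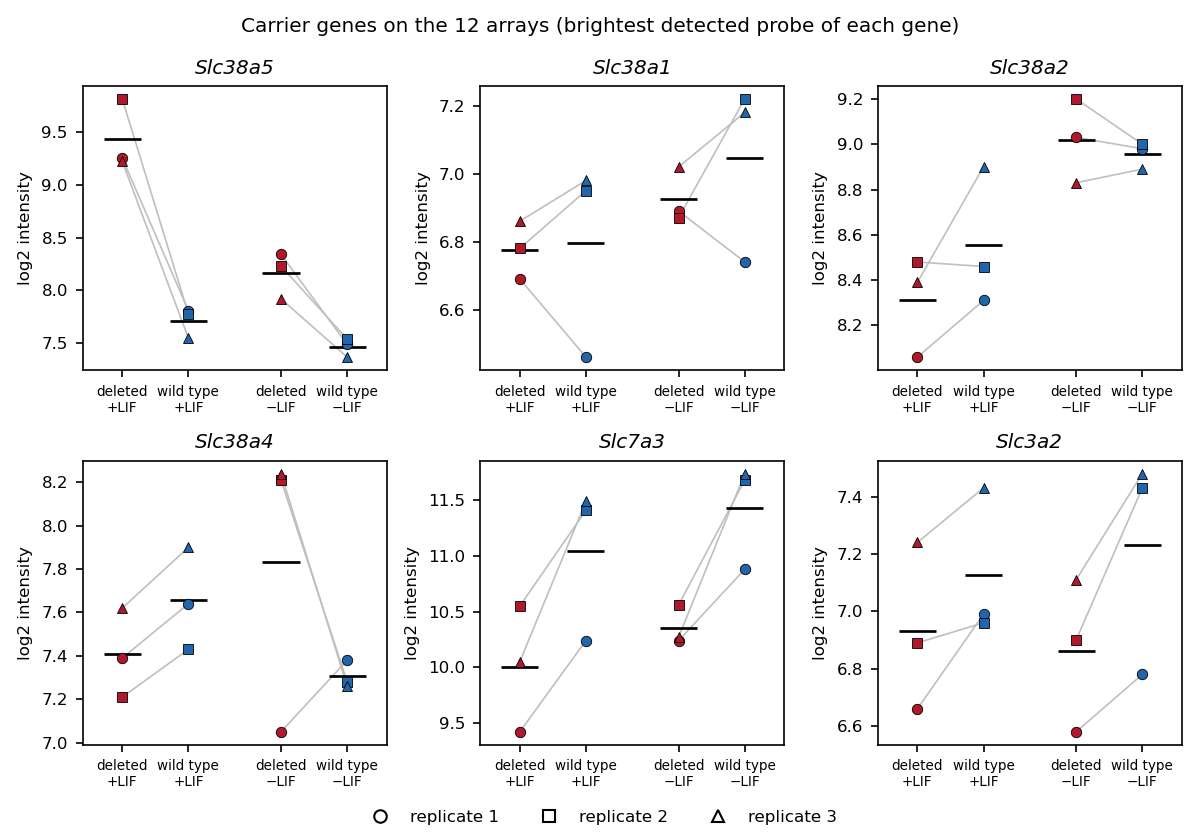
Log2 intensity (vertical axis of each panel) of the brightest detected probe of the 6 detected carrier genes on the 12 arrays, by group; symbols stand for replicate numbers, grey lines join same-numbered arrays of a culture, and bars are group means. Slc38a5 was higher on every deleted array than on any wild type array of the same culture, and Slc7a3 was lower in deleted cells in each same-numbered pair.

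Some markers of other cell types also differed between deleted and wild type cells on these arrays, and others did not. Of 8 fibroblast markers 3 were detected, and all 3 rose in deleted cells with LIF in limma: Thy1 by 1.06 (adjusted p = 0.0261), Col1a1 by 0.51 (adjusted p = 0.0152) and Pdgfrb by 0.39 (adjusted p = 0.0466). With each of the 12 arrays left out in turn, Thy1 passed 7 times, Col1a1 9 times and Pdgfrb 2 times. Their summed level (log2) was 10.13 to 10.22 on the deleted arrays with LIF, against 9.05 to 9.47 on wild type arrays with LIF. It was 9.32 to 9.84 on the deleted arrays without LIF, against 8.71 to 9.44 on the wild type arrays without LIF, and these groups overlapped. The collagen genes Col1a2 and Col3a1 and the matrix genes Dcn, Lum and Postn were not detected.

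Of 11 markers of primitive and visceral endoderm 3 were detected. Amn, part of an endocytic receptor, rose by 1.59 with LIF (limma, adjusted p = 0.000996) and by 0.85 without LIF (adjusted p = 0.0267), the endocytic adaptor Dab2 rose by 0.50 with LIF (adjusted p = 0.0189), and the transcription factor gene Gata6 differed by -0.05 with LIF, which did not pass. With each of the 12 arrays left out in turn, Amn passed 12 times with LIF and 7 times without LIF, and Dab2 passed 7 times with LIF. Other Dab2 probes gave 0.45 with LIF, which passed (limma, adjusted p = 0.0344), and 0.08, which did not. The summed level was 9.45 to 9.86 on the deleted arrays with LIF, against 8.47 to 8.89 on wild type arrays with LIF, and 9.70 to 9.80 on the deleted arrays without LIF, against 9.25 to 9.50 on the wild type arrays without LIF. Gata4, Sox17, Sox7, Afp, Ttr, Apoa1, Cubn and Foxa2 were not detected. The 5 detected of 9 trophoblast markers summed to 12.38 to 12.80 on the deleted arrays with LIF, against 11.89 to 12.33 on wild type arrays with LIF. Without LIF they summed to 12.43 to 13.32 on the deleted arrays, against 12.33 to 12.58 on the wild type arrays, and Cdx2, Elf5, Hand1 and Tpbpa were not detected.

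Single markers moved too. Tfap2c, a transcription factor gene listed here as a trophoblast marker, rose by 0.55 with LIF (limma, adjusted p = 0.0234). It rose by 0.68 without LIF (adjusted p = 0.00768), and it was the 1 trophoblast marker that passed between deleted and wild type cells. Without wild type replicate 2 or 3 or any 1 deleted array with LIF its call with LIF was lost (differences over all arrays left out 0.47 to 0.65). Its other probes gave 0.55 and 0.56 with LIF, which did not pass. Without LIF they gave 0.55 and 0.65, of which the second passed (adjusted p = 0.035). Krt8 differed by 0.54 with LIF and 0.33 without, and Krt18 by 0.52 and 0.19. Eomes differed by 0.13 and -0.28, and Ascl2 by -0.04 and 0.31. After LIF withdrawal Tfap2c differed by -1.21 in wild type and -1.09 in deleted cells, and both passed in limma. Krt18 then differed by 1.34 and 1.01, which passed, and Krt8 by 1.04, which passed, and 0.83, which did not. Eomes and Ascl2 did not pass in either genotype. Of 6 neuroectoderm markers Nes and Map2 were detected and Sox1, Pax6, Tubb3 and Zic1 were not. Map2 rose by 0.43 without LIF (adjusted p = 0.0271), which was lost without wild type replicate 2 or 3 or any 1 deleted array of that culture (0.38 to 0.50), and Nes differed by -0.25 with LIF and -0.51 without LIF, which did not pass. Their summed level was 8.14 to 8.19 on deleted arrays with LIF, against 8.06 to 8.36 on wild type arrays with LIF, and 8.70 to 8.84 on deleted arrays without LIF, against 8.69 to 8.79 on wild type arrays without LIF.

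Among the ES cell markers Pou5f1, a core pluripotency factor, fell by 0.50 with LIF (limma, adjusted p = 0.0277) and by 0.87 without LIF (adjusted p = 0.00124). The call with LIF was lost without wild type replicate 2 or 3 or deleted replicate 1 or 3 with LIF (differences over all arrays left out -0.56 to -0.42), and its second probe gave -0.49 with LIF, which did not pass, and -0.83 without LIF (adjusted p = 0.0101). Dnmt3l, a partner of DNA methyltransferases, rose by 0.73 with LIF (adjusted p = 0.00706) and by 1.07 without LIF (adjusted p = 0.000699), and Dppa5a rose by 0.42 without LIF (adjusted p = 0.0245), which was lost without wild type replicate 2 or 3 or deleted replicate 1 or 3 of that culture (0.36 to 0.46), and its other probe gave 0.41, which did not pass. The other ES cell markers did not pass in either culture. The 10 ES cell markers summed to 15.86 to 16.02 in deleted cells with LIF, against 15.83 to 15.89 in wild type cells with LIF, and to 15.50 to 15.55 in deleted cells without LIF, against 15.09 to 15.21 in wild type cells without LIF. Whether other cells had a part in the Slc38a5 difference was not tested.

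With LIF a rise like that of Slc38a5 was not seen in the 5 other carriers with a detected probe. For them the log2 differences of the brightest probe lay between -1.04 and -0.02, and 0 passed in limma, while 1 of them, Slc7a3, had an unadjusted p under 0.05. Over the 6 genes the median was -0.22, beside 0.02 over all 9527 genes measured. Without LIF the median over the 6 genes was -0.03, beside 0 over all genes. Of all probes 7.19% passed with LIF. Of the 8 member probes 1 did, that of Slc38a5, which was chosen for this difference, so nothing is read from the count.

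**Figure D2:**
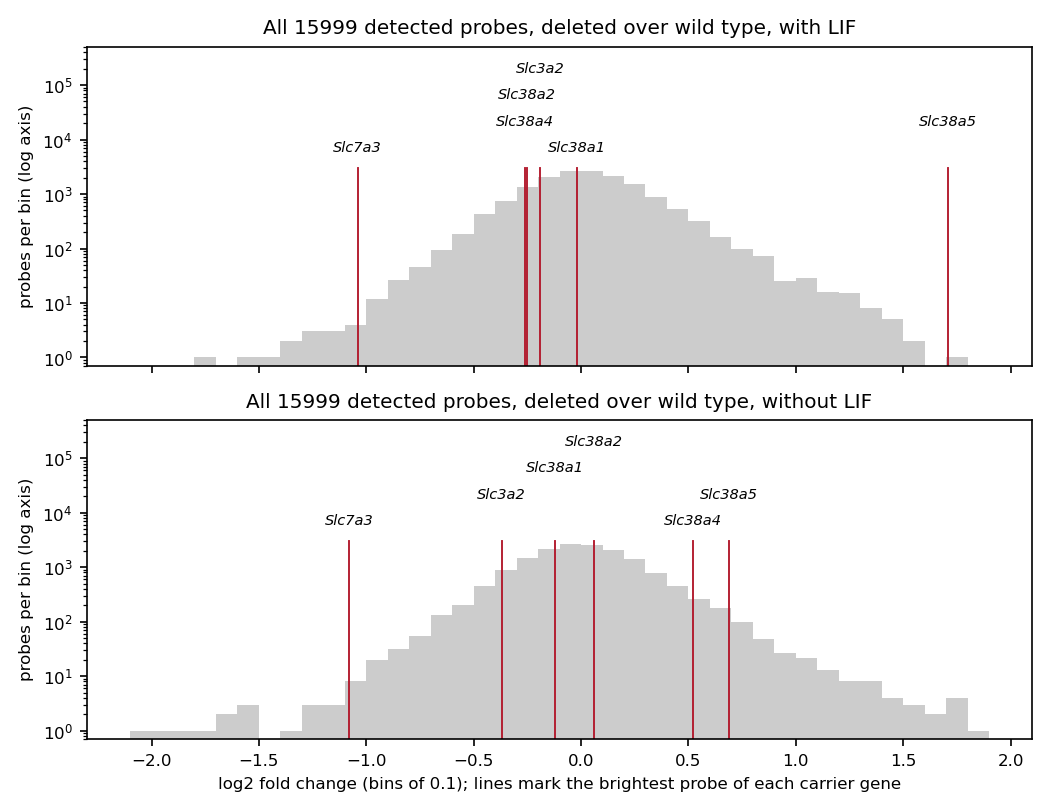
Number of probes (vertical log axis) by log2 fold change of deleted over wild type cells in bins of 0.1 (horizontal axis), for all 15999 probes in the fit, with LIF above and without LIF below; lines mark the brightest probe of each detected carrier gene. With LIF Slc38a5 lay at the upper end of the distribution at 1.71 and Slc7a3 in its lower tail at -1.04, and without LIF they lay at 0.69 and -1.08.

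Slc38a1, a system A carrier, was dim, and its kept probe (ILMN_1219573) was detected on all 6 deleted and on 5 of 6 wild type arrays. It read 6.69, 6.78 and 6.86 on the deleted arrays with LIF, against 6.46, 6.95 and 6.98 on wild type arrays with LIF. Without LIF it read 6.89, 6.87 and 7.02 on the deleted arrays, against 6.74, 7.22 and 7.18 on the wild type arrays. The groups overlapped in both cultures. The differences were -0.02 ± 0.15 (SE) with LIF and -0.12 ± 0.15 without LIF, with 95% intervals of -0.35 to 0.31 and -0.45 to 0.21, and neither passed in limma. The other 3 probes of the gene were not kept, and each was detected on 1 to 3 of the 6 arrays of either genotype.

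Slc38a2, the system A carrier, had 3 kept probes. The brightest (ILMN_1244123) read 8.06, 8.48 and 8.39 on the deleted arrays with LIF, against 8.31, 8.46 and 8.90 on wild type arrays with LIF. Without LIF it read 9.03, 9.20 and 8.83 on the deleted arrays, against 8.98, 9.00 and 8.89 on the wild type arrays. Deleted and wild type arrays overlapped in both cultures, and the differences of -0.25 ± 0.16 (SE) with LIF and 0.06 ± 0.16 without LIF did not pass in limma (adjusted p = 0.374 and 0.858). The second probe (ILMN_2955671) gave -0.47 ± 0.31 and -0.14 ± 0.31, and neither passed. With LIF its 3 pairs were lower in deleted cells by unequal amounts (-0.19, -0.28 and -0.94), and with the block within each culture limma gave an adjusted p of 0.0193. In that fit 3336 of all 15999 probes passed. The dim probe (ILMN_2721692), detected on 5 of 6 deleted and 2 of 6 wild type arrays, differed by 0.24 ± 0.13 with LIF and -0.06 ± 0.13 without LIF, and neither passed. It passed the filter through a deleted group only, so its direction is not read.

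Slc38a4, a system A carrier whose mouse gene is imprinted, had 1 probe, detected on all 12 arrays. With LIF it read 7.39, 7.21 and 7.62 on the deleted arrays, against 7.64, 7.43 and 7.90 on the wild type arrays. All 3 pairs were slightly lower in deleted cells (-0.25, -0.23 and -0.29), but the groups overlapped and the mean difference of -0.26 ± 0.25 (SE) did not pass (limma, adjusted p = 0.586). Without LIF it read 7.05, 8.21 and 8.24 on the deleted arrays, against 7.38, 7.28 and 7.26 on the wild type arrays. The deleted array numbered 1 lay below every wild type array and the other 2 lay above them. The difference was 0.52 ± 0.25 (adjusted p = 0.218), and without that 1 array it was 0.92 (adjusted p = 0.00433), so a single array decided the call. After LIF withdrawal in deleted cells the probe differed by 0.43 ± 0.25 (adjusted p = 0.357), and by 0.82 (adjusted p = 0.00426) without the same array. The change with LIF withdrawal differed between deleted and wild type cells by 0.78 ± 0.35 (adjusted p = 0.701).

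Slc7a3, the carrier of arginine and lysine, was lower in deleted cells in every same-numbered pair. Its kept probe (ILMN_1257987) read 9.42, 10.55 and 10.05 on the deleted arrays with LIF, against 10.24, 11.41 and 11.49 on wild type arrays with LIF. Without LIF it read 10.24, 10.56 and 10.27 on the deleted arrays, against 10.88, 11.68 and 11.74 on the wild type arrays. The groups overlapped with LIF, through the low wild type array numbered 1, and did not overlap without LIF, where all deleted arrays were lower. In that comparison the same held for 13.4% of all probes. The array numbered 1 was the lowest of its group in all 4 groups.

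In same-numbered pairs Slc7a3 was lower in deleted cells in 3 of 3 with LIF (-0.82, -0.86 and -1.44) and in 3 of 3 without LIF (-0.64, -1.12 and -1.47). The mean differences were -1.04 ± 0.33 (SE; 95% interval -1.75 to -0.33) and -1.08 ± 0.33 (95% interval -1.78 to -0.37), which put the probe at places 13 and 18 from the bottom of 15999. Neither passed in the fit without a block (limma, adjusted p = 0.0708 with LIF and 0.0617 without), while a fit of the 2 groups without LIF alone gave 0.0372. Both passed with replicate number as a block (adjusted p = 0.00087 and 0.000688), and with the block within each culture (0.000269 and 0.000208), where same-numbered arrays deviated together. Without LIF this pairing was not clear for the arrays numbered 3. The block also raised the calls over all 15999 probes, from 1151 to 2743 with LIF and from 1235 to 2771 without LIF. Kept within each culture it gave 3336 with LIF and 3253 without LIF. Without wild type replicate 1 with LIF the difference with LIF was -1.44 (adjusted p = 0.0101) and that without LIF kept its value and passed (adjusted p = 0.0225). Without wild type replicate 1 without LIF the difference without LIF was -1.35 (adjusted p = 0.0262) and that with LIF passed at 0.0457. The change with LIF withdrawal differed between genotypes by -0.04 ± 0.47. The second probe of the gene was not kept: it was detected on 0 of 6 deleted and 3 of 6 wild type arrays and read at most 6.78.

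Slc3a2, the heavy chain that Slc7a5 and Slc7a11 need at the membrane, had 1 probe, detected on all 12 arrays. It read 6.66, 6.89 and 7.24 on the deleted arrays with LIF, against 6.99, 6.96 and 7.43 on wild type arrays with LIF. Without LIF it read 6.58, 6.90 and 7.11 on the deleted arrays, against 6.78, 7.43 and 7.48 on the wild type arrays. The groups overlapped in both cultures, while all 3 pairs were lower in deleted cells in each (-0.33, -0.07 and -0.19 with LIF, and -0.19, -0.54 and -0.37 without). The differences of -0.19 ± 0.21 (SE) and -0.37 ± 0.21 did not pass without a block (limma, adjusted p = 0.631 and 0.316). With the replicate block the difference without LIF passed (adjusted p = 0.0413, and 0.0222 with the block within each culture). In these fits 2771 and 3253 of all 15999 probes passed.

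The light chain gene Slc7a11 had 5 probes and none was kept. They read between 5.80 and 6.67, and the probe seen most often was detected on 2 of 6 deleted and 3 of 6 wild type arrays. The 5 probes of Slc1a5 were not kept either: they read between 5.68 and 6.66, and 1 of them was detected on 1 wild type array. Values there are near the detection floor, so these carriers were not detectable at this signal, which does not show that they were absent. With no probe filter all 22 member probes were tested, and without LIF 1 passed, that of Slc38a5 (limma, adjusted p = 0.0237), where 706 of all 45281 probes passed.

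**Figure D3:**
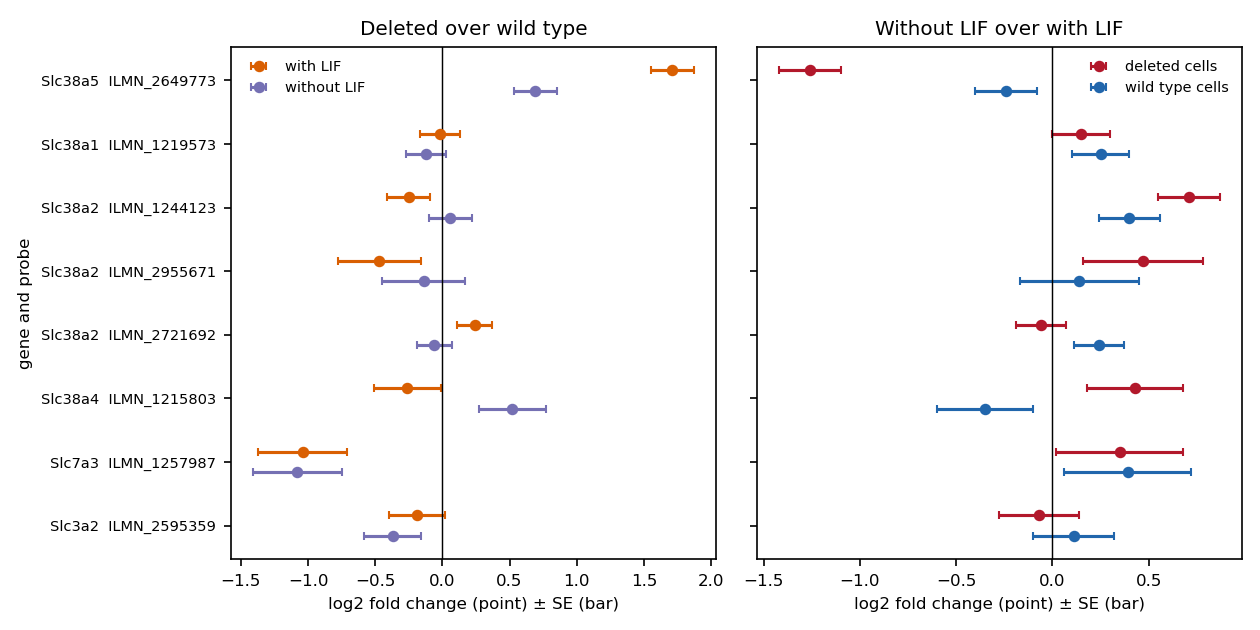
Log2 fold change (points) with its standard error (bars) for the 8 kept probes of the carrier genes, deleted over wild type on the left and without LIF over with LIF on the right. The Slc38a5 and Slc7a3 probes lay on opposite sides of 0 in both cultures on the left (1.71 and -1.04 with LIF), and on the right the brightest Slc38a2 probe lay highest in deleted cells at 0.71.

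LIF keeps mouse ES cells undifferentiated, and taking it away for 4 days asked how the carriers change as the cells leave that state. In deleted cells 2 of 8 member probes passed, those of Slc38a5 and of Slc38a2, where 8.75% of all probes passed. Slc38a5 adds nothing to that count, as it was chosen on arrays of this comparison. The brightest Slc38a2 probe rose by 0.71 ± 0.16 (SE), 1.64-fold (limma, adjusted p = 0.0118), and was higher without LIF in 3 of 3 same-numbered pairs, by 0.97, 0.72 and 0.44. The call was lost without deleted replicate 1 with LIF (0.58, adjusted p = 0.0665) and without deleted replicate 2 without LIF (0.62, adjusted p = 0.0579). It was also lost under median scaling of the non-normalized intensities (0.63, adjusted p = 0.347). Its other probes gave 0.47 ± 0.31 and -0.06 ± 0.13, and neither passed.

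In wild type cells 0 of 8 member probes passed after LIF withdrawal in limma, where 18% of all probes passed, and 1 of the 8 had an unadjusted p under 0.05. That was the brightest Slc38a2 probe, with a difference of 0.40 ± 0.16 (adjusted p = 0.0987, and 0.0203 without wild type replicate 3 with LIF, where it was 0.57). The test of the difference between deleted and wild type cells gave 0.31 ± 0.22 for this probe (adjusted p = 0.877), so a larger rise in deleted cells was not shown. Slc7a3 differed by 0.35 ± 0.33 in deleted and 0.39 ± 0.33 in wild type cells, Slc3a2 by -0.07 ± 0.21 and 0.11 ± 0.21, and Slc38a1 by 0.15 ± 0.15 and 0.25 ± 0.15. None of these passed. In the test of genotype by culture 0 of 8 member probes passed in limma, where 0.0188% of all probes passed. Slc38a5, given without a test, aside, the unadjusted p was under 0.05 for 1 probe, that of Slc38a4.

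The relatives and partners of these carriers were taken from 8 lists of 124 genes, of which 75 had a detected probe. With 1 probe a gene, 8.7% of all genes passed with LIF and 9.18% without LIF. Of the other SLC38 genes, 4 of 7 were measured (Slc38a7, Slc38a8, Slc38a9 and Slc38a10). In both cultures 0 of them rose and 0 fell in limma (1 had an unadjusted p under 0.05 in each), with medians of 0.22 with LIF and 0.11 without LIF, and Slc38a9, the lysosomal arginine sensor, differed by 0.28 with LIF. Of the other SLC7 and SLC3 genes 4 of 13 were measured, and Slc7a8, another light chain partner of Slc3a2, rose by 0.49 ± 0.13 (SE) without LIF (limma, adjusted p = 0.0364), while its second probe at 0.13 did not pass.

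Of the other SLC1 carriers 3 of 6 were measured. Slc1a1, a carrier of glutamate and cysteine, rose by 0.50 ± 0.13 with LIF (limma, adjusted p = 0.0369), and its second probe at 0.57 did not pass (adjusted p = 0.0582). Slc1a3, another glutamate carrier, fell by 0.59 on the log2 scale without LIF (adjusted p = 0.0414). After LIF withdrawal each moved the same way in either genotype. Slc1a1 fell by 1.03 in deleted and by 0.80 in wild type cells, and Slc1a3 rose by 0.79 in deleted and by 1.02 in wild type cells. All 4 of these differences passed.

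Of 27 other amino acid carriers 10 were measured and 2 fell in each culture. They were Slc6a9, the glycine carrier (-0.69 ± 0.17 with LIF and -0.63 ± 0.17 without; limma, adjusted p = 0.0261 and 0.0367), and Slc43a1, a carrier of large neutral amino acids (-0.42 ± 0.11 and -0.51 ± 0.11; adjusted p = 0.0328 and 0.0112). The second probe of Slc43a1, at -0.20 and -0.23, did not pass. The medians of the 10 genes were -0.15 with LIF and -0.10 without LIF, beside 0.02 and 0 over all genes.

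Among 16 measured enzymes that make or use glutamine and glutamate, 2 rose and 2 fell with LIF. Oat, which makes ornithine, rose by 0.52 ± 0.10 (limma, adjusted p = 0.00863) and Glud1, glutamate dehydrogenase, by 0.38 ± 0.09 (adjusted p = 0.0305), although the other 2 probes of Glud1 at -0.15 and 0.19 did not pass. Gpt2, an alanine transaminase, fell by 0.49 (adjusted p = 0.0331) and Pfas, a purine synthesis enzyme that uses glutamine, by 0.41 (adjusted p = 0.0305). Without LIF 0 of the 16 passed in limma, and 5 had an unadjusted p under 0.05. Gpt2 then differed by -0.34 and Pfas by -0.30, and with the block within each culture these passed (adjusted p = 0.0252 and 0.0495). In that fit 3253 of all 15999 probes passed.

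Of 25 measured genes of amino acid sensing and mTORC1, the growth kinase complex that amino acids switch on, 1 fell in each culture. This was Seh1l, a subunit shared by the nuclear pore and a regulator of mTORC1 (-0.46 ± 0.12 with LIF and -0.52 ± 0.12 without; limma, adjusted p = 0.0374 and 0.0187). A further probe of it passed too (-0.51 and -0.47) and another, at 0 and -0.28, did not. Of 9 measured regulators of carrier genes 1 passed: Bach1, a repressor of antioxidant genes, rose by 0.44 without LIF (adjusted p = 0.0452). Atf4, the transcription factor of the amino acid response, differed by -0.66 ± 0.20 with LIF (adjusted p = 0.0625) and by -0.24 ± 0.20 without. Of 4 measured genes of carrier trafficking Nedd4l, a ubiquitin ligase that acts on membrane carriers, rose by 0.45 ± 0.10 with LIF and 0.57 ± 0.10 without (adjusted p = 0.0187 and 0.00469).

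These 16 calls in the lists were modest in size and few held throughout. With each of the 12 arrays left out in turn, those of Nedd4l and Slc43a1 without LIF passed 12 of 12 times, and of the 16 calls between 5 (without deleted replicate 1 or 3 with LIF) and 14 (without wild type replicate 1 without LIF) passed. All 16 passed with the replicate block, under which 2743 of all 15999 probes passed with LIF and 2771 without LIF. Under median scaling of the non-normalized intensities 1 passed, that of Slc1a1 with LIF (adjusted p = 0.0466).

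**Figure D4:**
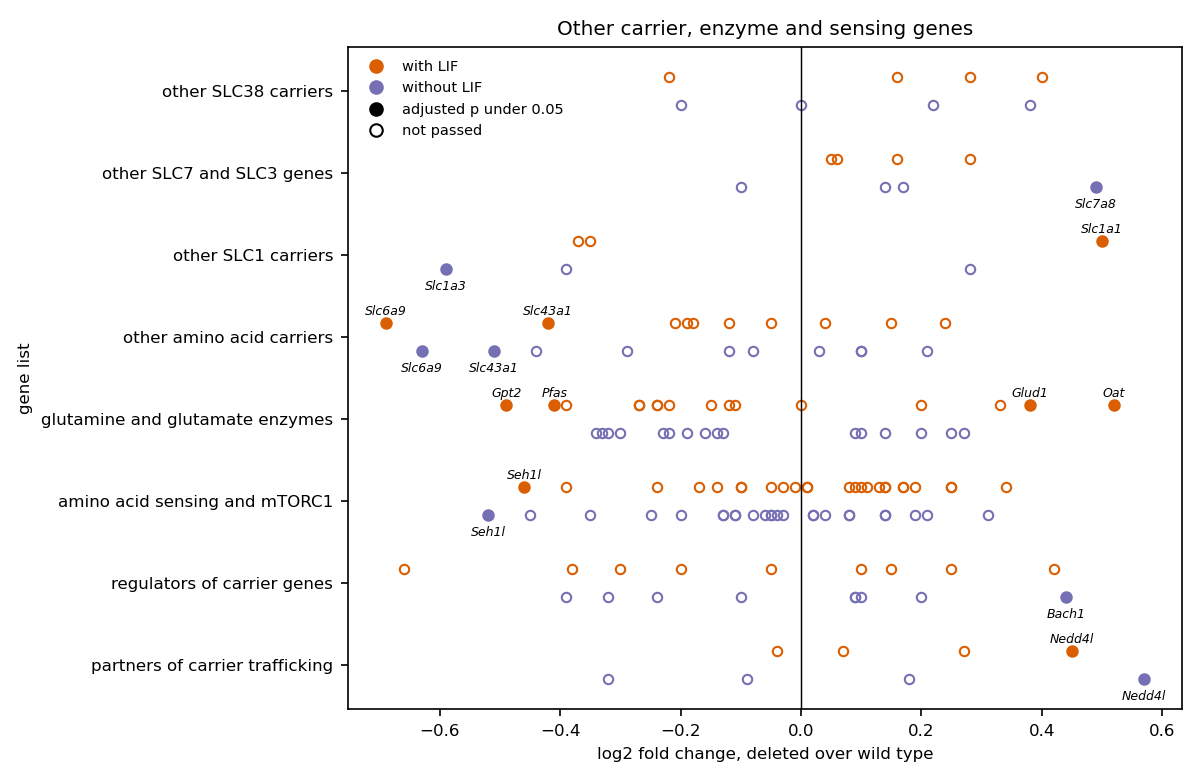
Log2 fold change of deleted over wild type cells (horizontal axis) for the measured genes of 8 lists around the carriers (vertical axis), 1 probe a gene, with LIF in orange and without LIF in violet; filled points passed at an adjusted p under 0.05. Slc6a9 and Slc43a1 lay below 0 and Nedd4l above 0 with filled points in both cultures, and most genes of every list were open points.

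The genes whose log2 values over the 12 arrays ran most like those of Slc38a5, by Pearson's r among 9526 other genes, were Smap2 (0.958), Trp53inp2 (0.954), Padi6 (0.94), Nphp4 (0.94) and Mdh2 (0.938). The arrays share 4 groups and these values are a description. Within groups, after the group means were taken off, r was 0.799 for Smap2, 0.652 for Trp53inp2 and 0.669 for Padi6, but 0.0593 for Nphp4 and 0.118 for Mdh2. Their log2 differences with LIF were smaller than that of Slc38a5, from 0.45 for Padi6 and Mdh2 to 0.73 for Trp53inp2 and Nphp4. Without LIF, on arrays that the likeness also used and therefore without a test, the differences were 0.42 for Smap2, a regulator of membrane traffic, 0.46 for Nphp4, a protein of the cilium base, and 0.21 for Mdh2, mitochondrial malate dehydrogenase.

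No measured gene beside Slc38a5 on the X chromosome passed in the fit without a block. Of the 5 listed genes before it, 4 were measured with LIF and without LIF: Ftsj1, an RNA methyltransferase and the nearest of them, differed by -0.06 and -0.22, Porcn, which lipidates Wnt proteins, by 0.63 and -0.33, Ebp, a sterol enzyme, by 0.21 and 0.02, and Tbc1d25 by -0.25 and -0.50, and none passed in limma. The other probe of Porcn differed by 0.27 and -0.13, and neither passed. With the replicate block Porcn passed with LIF (adjusted p = 0.0116) and Tbc1d25 was lower and passed without LIF (adjusted p = 0.0179). In that fit 2743 of all 15999 probes passed with LIF and 2771 without LIF. The 5 genes after it, Ssxb10, Ssxb9, Ssxb1, Ssxb2 and Gm14459, had no kept probe. On the whole X chromosome 6.27% of 319 measured genes rose in deleted cells with LIF, against 5.91% of 9200 genes elsewhere, and 5.64% against 5.32% rose without LIF.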

How the data were processed

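RNA of 12 E14 samples was hybridised as biotin-labelled cRNA to 1-colour Illumina arrays, per the labels. GenomeStudio is named in the submitters' processing notes, with no version and no settings. The authors' deposited processed table gives intensity values on a linear scale, with column medians of 125.8 to 125.9 and 1 shared minimum (86.5) and maximum (35095); how it was normalized is not given in the sources used here. The deposited non-normalized table gives, per the file headers, 2 columns an array, an intensity and a detection p-value. Its columns were matched to the arrays by rank order, a match by values, because the namings conflict; detections are therefore counted per genotype, which is the same under both namings.

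The processed intensities were background-corrected with normexp (offset 50), taken to log2 and quantile normalized. Probes detected (p under 0.05) on all 3 arrays of some group were kept, 15999 of 45281. Of all probes 34885 had 1 gene symbol, 18 several and 10378 none listed, and 34807 matched the reference gene table, which changed 0 symbols. For the 9527 genes with a kept probe, the brightest stood for the gene. The offset compresses dim values, so folds of dim probes are understated. Precision is limited by the number of arrays, with a median SE of 0.14 for a log2 difference. Group means of the 4 groups were fitted with limma 3.58.1 (R 4.3.3; 12 arrays, 8 residual degrees of freedom) and tested two-sided, with Benjamini-Hochberg adjustment over all kept probes at 0.05. It was tested on simulated data first.

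The members and lists were chosen with earlier results of these data known. Named genes are the members, the list genes that passed in a comparison of deleted with wild type cells (at most 4 a list), the 5 genes most like Slc38a5 and its 5 neighbours on each side. Atf4, Gata6, Klf4, Esrrb, Zfp42, the trophoblast markers beside Tfap2c, the other SLC38 genes and the undetected markers were named beside them after their values were seen. Same-numbered arrays deviated together between deleted and wild type cells with LIF (correlations of deviations from group means 0.477, 0.291 and 0.375), without LIF (0.668, 0.492 and 0.251) and over LIF withdrawal in deleted cells (0.549, 0.298 and 0.37), but not throughout over LIF withdrawal in wild type cells (0.496, -0.0457 and 0.344). The number was therefore taken to pair the arrays in the first 3 comparisons only. The highest correlations with another number were -0.139, 0.126 and -0.153 with LIF and -0.457, 0.393 and 0.3 without LIF. For number 3 without LIF another number thus ran closer, so the pairing there is less sure. The replicate block nevertheless ties same-numbered arrays of all 4 groups. The alternatives were other background corrections, normalizations, probe filters, variance priors, sample sets and blocks, and each array left out.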

Additional observations from a re-analysis of the deposited data

How the results depend on the processing

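Direction was compared where a value passed in either setting, and no such value reversed. Of 863 comparisons of a member probe with an alternative, 22 turned the sign of a value that passed in neither. The count of member probes that passed was 1 with LIF (Slc38a5, chosen for that difference), 1 without LIF, 0 for LIF withdrawal in wild type cells, 2 for LIF withdrawal in deleted cells and 0 for the interaction. With the replicate block these became 2, 3, 1, 2 and 1; the added ones were Slc7a3 with LIF, Slc7a3 and Slc3a2 without LIF, Slc38a2 in wild type cells and Slc38a5 in the interaction, a comparison on the arrays that chose the gene, from which nothing is read. The numbers do not pair the arrays over LIF withdrawal in wild type cells. The block within each culture, an alternative chosen after seeing the data, gave 3 with LIF and 3 without LIF. The fit of only the 2 groups compared gave 2 without LIF. Median scaling of the non-normalized intensities, also chosen after seeing the data, gave 0 without LIF (Slc38a5 0.75, adjusted p = 0.0893) and 1 for LIF withdrawal in deleted cells. That 1 was Slc38a5, chosen on arrays of this comparison, so nothing is read from it, while Slc38a2 did not pass (0.63, adjusted p = 0.347). Leaving out 1 array at a time gave 1 to 2 with LIF, 0 to 2 without LIF, 0 to 1 and 1 to 3 for LIF withdrawal in wild type and in deleted cells, and 0 for the interaction. The replicate block changed no other call of a member.

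Over all probes 1151 passed with LIF and 1235 without LIF, 2882 for LIF withdrawal in wild type cells, 1400 in deleted cells and 3 for the interaction. The counts were 2743, 2771, 4445, 2534 and 20 with the replicate block, 3336 and 3253 with the block within each culture for the first 2, and 376, 294, 982, 470 and 1 under median scaling of the non-normalized intensities. With no probe filter 594 passed with LIF and 706 without LIF, fitting only the 2 groups gave 556 without LIF, and leaving out 1 array gave 311 to 1523 with LIF, 446 to 1476 without LIF, 1911 to 3201 and 740 to 1549 for LIF withdrawal in wild type and deleted cells and 2 to 10 for the interaction. For the interaction the intensity trend gave 7, the deposited values 11, the stricter filter 1, and no filter, 1 probe a gene and neqc 5 each. The share of calls that were higher was 66.4% with LIF, 55.5% without LIF, 52% for LIF withdrawal in wild type cells, 47.4% in deleted cells and 33.3% for the interaction, against 92.8%, 91.5%, 31.7%, 21.1% and 100% under median scaling of the non-normalized intensities. The cause of these shifts was not tested. Values near the detection floor limit Slc38a1, Slc3a2, Slc7a11, Slc1a5 and the dimmest Slc38a2 probe.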
